A study of Homo sapiens with 2 samples.

Results

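Laminin chains and nidogens, the glycoproteins that build the laminin layer of basement membranes, were examined in human mesothelioma cells with lowered or raised CD26. The 9 genes were taken by symbol: the laminin alpha chain genes LAMA1, LAMA2, LAMA4 and LAMA5, the beta chain genes LAMB1 and LAMB3, the gamma chain gene LAMC1, and the nidogen genes NID1 and NID2. They are 9 of the 12445 genes named on the array. Each was read by 1 probe, and NID1 was listed under its older symbol NID. All 9 had a value on the first array and 6 had one on the second. LAMA2, LAMA4 and NID1 had no value on the second array, as did 13.4% of all genes measured on the first.

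Total RNA was measured on 2 arrays of 2 colours each, with 1 array per comparison. The first, here the depletion array, compared ACC-MESO1 cells depleted of CD26 with their ACC-MESO1 control. The second, here the transfection array, compared MSTO-211H cells that had received CD26 in the vector pLNCX2 with their MSTO-211H control. Both are established mesothelioma cell lines, and CD26 is the surface peptidase encoded by DPP4. The depleting agent is named an siRNA in the series text and an shRNA in the protocol, and neither says what the control cells received. Each value is a log2 ratio of manipulated over control cells, so 1 is a 2-fold higher and -1 a 2-fold lower level in the manipulated cells. Levels themselves were not available, so neither the order of expression among these genes nor the labelled cell type could be checked from markers. On both arrays the manipulated cells carried Cy3 and the control cells Cy5, so a dye effect on a probe and the manipulation cannot be told apart. The cell line differed between the arrays as well, so line and direction of the CD26 change cannot be told apart either. DPP4, the check of the manipulation, was the lowest of all genes in depleted cells (-3.92) and the highest of all in transfected cells (5.51).

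A laminin is a trimer of 1 alpha, 1 beta and 1 gamma chain, and many laminins are cross-shaped. Many trimers bind each other through their short arms to form a sheet. The end of the alpha chain binds integrins and dystroglycan on the cell surface. Nidogens bind the gamma1 chain and type IV collagen and so link the laminin sheet to the collagen network. Mesothelial cells rest on such a basement membrane, and invasion across it is a step in tumour spread.

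The genes farthest from 0 were the nidogens and LAMA5. The 250 bases before the RefSeq start site of each are shown here, 5′ to 3′ on the gene's strand in GRCh38.p14, as the sequence context of the genes whose values stood out. Capitals mark GC boxes (GGGCGG) and CCAAT boxes (CCAAT), read on both strands.
NID2, chr14:52069060-52069309, minus strand: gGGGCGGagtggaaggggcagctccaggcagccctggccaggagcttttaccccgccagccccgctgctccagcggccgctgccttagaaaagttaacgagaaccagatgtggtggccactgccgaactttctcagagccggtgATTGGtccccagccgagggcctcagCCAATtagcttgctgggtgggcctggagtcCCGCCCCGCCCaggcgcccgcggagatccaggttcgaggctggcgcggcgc
NID1, chr1:236065091-236065340, minus strand: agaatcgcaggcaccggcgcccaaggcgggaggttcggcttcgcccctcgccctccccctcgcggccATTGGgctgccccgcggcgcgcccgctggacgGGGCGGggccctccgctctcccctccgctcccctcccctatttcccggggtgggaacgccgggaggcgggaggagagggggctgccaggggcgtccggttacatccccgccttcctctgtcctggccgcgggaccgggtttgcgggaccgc
LAMA5, chr20:62367313-62367562, minus strand: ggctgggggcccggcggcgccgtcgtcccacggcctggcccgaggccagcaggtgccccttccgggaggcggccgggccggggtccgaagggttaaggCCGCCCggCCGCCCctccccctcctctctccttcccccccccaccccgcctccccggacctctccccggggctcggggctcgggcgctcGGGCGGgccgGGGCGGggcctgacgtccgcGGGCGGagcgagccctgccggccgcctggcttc

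The NID2 window held 3 GC boxes, 2 of which overlapped, and 2 CCAAT boxes. The NID1 window held 1 of each, and the LAMA5 window held 5 GC boxes and no CCAAT box. A GC box was present in 42.6% and a CCAAT box in 32.0% of the 35116 RefSeq promoter windows of this length, and in 6 and 3 of the 8 genes of the set that were in the table. LAMA1 was not among them. Those shares are per window, whereas a gene counted if any of its windows held the box. LAMB3 had a CCAAT box in 1 of its 3 windows. The GC content was 68% for NID2, 76.4% for NID1 and 82.8% for LAMA5, against a median of 58% over all windows. A TATA box (TATAAA) was in none of the windows of these 8 genes and in 10.7% of all. An AP-1 motif (TGANTCA) lay in 1 of the 3 windows of LAMB3, and 6.57% of all windows held one. A TEAD motif (GGAATG) lay in the LAMA2 window and in 11.9% of all. These are matches of letters, and no binding or methylation was measured.

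After CD26 depletion in ACC-MESO1 cells, 6 of the 7 laminin chain genes had values above 0 and both nidogen genes had values below 0, all short of 2-fold. Centring this array on cytosolic ribosomal protein genes, which added 0.33 to every value, put LAMC1 past 2-fold (1.12) and LAMA1 (0.27) and NID2 (0.07) above 0. None of the 9 was at least 2-fold higher, where 3.31% of all genes were, and none was at least 2-fold lower, where 1.56% were. The median of the 9 was 0.37, and that of all 10347 genes on this array was 0.01. Values above 0 were seen for 51.3% of all genes. At a log2 ratio of 0.5 or more were 2 of the 9, with 12.8% of all genes, and at -0.5 or less 1 of the 9, with 9.8% of all genes. With 1 array there is no replicate, and the one error at hand is the disagreement of different probes of the same gene, whose SD about the gene's mean was 0.42, pooled over 566 genes. LAMC1, LAMA2, LAMA4, LAMA5 and NID1, 5 of the 9, were farther from 0 than this SD, as were 29.0% of all genes.

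LAMC1 encodes gamma1, the gamma chain of most laminins, and had the highest value of the set after depletion. Its log2 ratio was 0.80, or 1.74-fold higher in depleted cells, and 94.4% of genes lay below it. Among the alpha chains, LAMA2, which gives the muscle laminins their cell-binding end, stood at 0.64 and LAMA4, the alpha chain of vascular basement membranes, at 0.50. LAMA5 encodes the alpha chain found widely in adult epithelial basement membranes and stood at 0.43. LAMA1, whose product is the main alpha chain of the early embryo, was the chain gene below 0, at -0.06.

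The beta chains had intermediate values after depletion. LAMB1, the usual partner of gamma1, was at 0.34. LAMB3, which belongs to the trimer that anchors skin epithelium, was at 0.37. Both lay within the SD between probes. NID1 was the lowest of the set, with a log2 ratio of -0.86, or 1.82-fold lower in depleted cells. Only 2.49% of genes lay below it. NID2, its homologue, was at -0.26.

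In the order of values on the depletion array, LAMC1 was followed by LAMA2, LAMA4, LAMA5, LAMB3, LAMB1, LAMA1, NID2 and NID1. Of the 8 steps between neighbours in this order, 7 were smaller than 0.59, the SD expected of a difference between 2 probes. The step from NID2 to NID1 (0.61) was just larger. Steps between sorted values are small by construction, so this count does not tell how well the order is resolved. LAMA1, for example, stood 0.86 below LAMC1. NID1 stood 1.66 below LAMC1, the gene for the chain its product binds, and NID2 stood 1.05 below it.

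**Figure D1:**
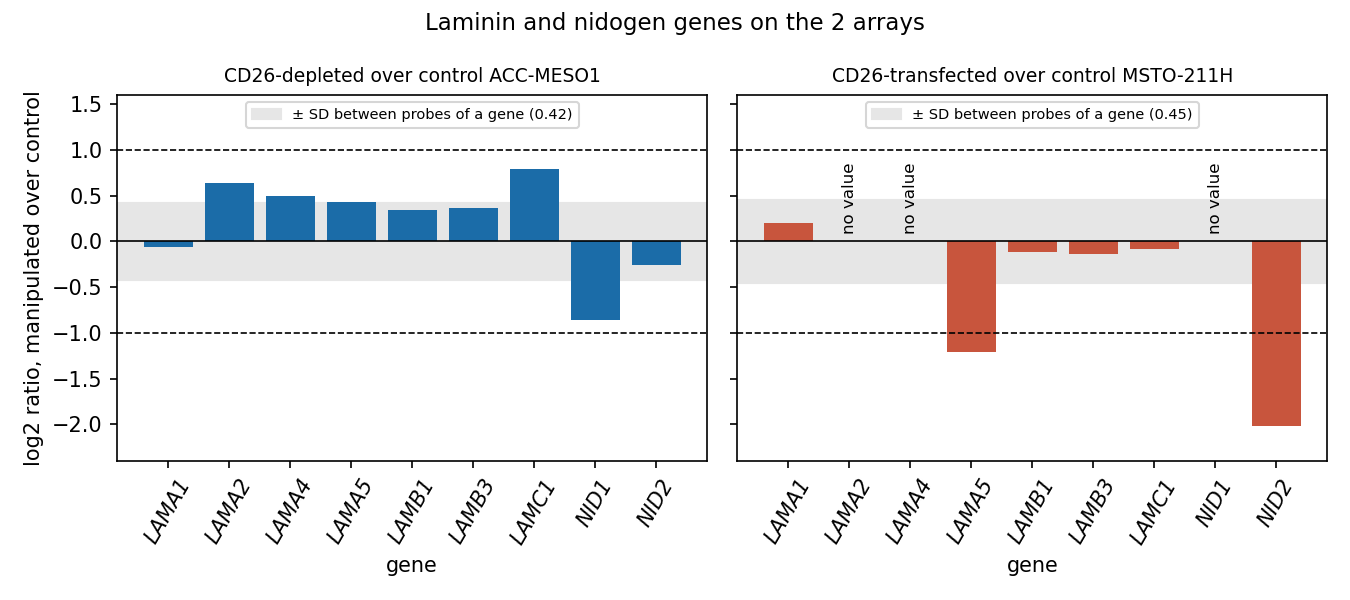
Log2 ratio of manipulated over control cells (vertical axis) for each laminin and nidogen gene (horizontal axis), CD26-depleted ACC-MESO1 on the left and CD26-transfected MSTO-211H on the right, 1 probe and 1 array per bar. The grey band is the SD between different probes of the same gene (0.42 and 0.45), the dashed lines are 2-fold, and 3 genes had no value on the transfection array. NID2 (-2.02) and LAMA5 (-1.21) pass the lower dashed line on the right, and no gene passes either line on the left.

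After CD26 transfection in MSTO-211H cells, NID2 and LAMA5 were at least 2-fold lower and the other 4 measured genes lay close to 0. Thus 2 of 6 were at least 2-fold lower, where 1.37% of the 9359 genes on this array were, and 0 of 6 were at least 2-fold higher, where 4.09% were. With ribosomal protein centring, which added 0.29 to every value of this array, LAMA5 was at -0.92 and short of 2-fold, and NID2 was at -1.73. At the lower threshold of 0.5, again 2 of 6 were lower, with 9.4% of all genes, and 0 of 6 higher, with 13.1%. The median of the 6 was -0.13, and that of all genes was 0.01. The SD between probes of the same gene was 0.45 on this array, over 471 genes.

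NID2 had a log2 ratio of -2.02, or 4.05-fold lower in transfected cells. It was the 7th lowest of all genes, and 0.41% of genes were as far from 0 in either direction. LAMA5 had a log2 ratio of -1.21, or 2.31-fold lower. It was the 66th lowest gene, with 0.69% of genes below it and 3.37% as far from 0 in either direction. NID1, the other nidogen gene, could not be compared because it had no value here.

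The chains that assemble with alpha5 did not share its value. LAMB1 was at -0.11 and LAMC1 at -0.08 in transfected cells, so LAMA5 stood 1.09 below the first and 1.12 below the second, against an SD of 0.64 expected of a difference between 2 probes. On the depletion array LAMA5 stood 0.09 above LAMB1, and LAMA5 minus LAMC1 was -0.37, both within 0.59. LAMB3 was at -0.14 and LAMA1 at 0.20 after transfection. In the order LAMA1, LAMC1, LAMB1, LAMB3, LAMA5 and NID2, the 3 upper steps were within 0.64, though sorting by itself makes steps small. The steps from LAMB3 to LAMA5 (1.06) and from LAMA5 to NID2 (0.81) were beyond it. No repeat array exists for either step.

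The depletion lowered CD26 and the transfection raised it, so both arrays were set side by side for the 6 genes with both values. LAMA5, LAMB1, LAMB3 and LAMC1 had values above 0 in depleted cells and below 0 in transfected cells, although with ribosomal protein centring LAMB1 (0.17), LAMB3 (0.14) and LAMC1 (0.20) were above 0 there. LAMB1 was above 0 there (0.06) also with each chromosome centred on its own median. LAMA1 had the reverse and NID2 was below 0 on both, as deposited. Opposite signs were thus seen for 5 of 6 genes, and for 46.9% of the 8956 genes measured on both arrays. With ribosomal protein centring they were seen for 2 of 6, LAMA5 and NID2, beside 30.1% of all genes, since LAMA1 (0.27 and 0.48) and the other 3 chain genes were then above 0 on both arrays. With chromosome centring they were seen for 4 of 6, beside 46.4% of all genes. LAMA1, LAMB1 and LAMB3 lay within the SD between probes on both arrays, and LAMC1 did on the transfection array.

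The value on the depletion array minus that on the transfection array was 1.63 for LAMA5, and 0.88% of genes had as high a difference. It was 1.76 for NID2, with 0.69% of genes as high. LAMC1 followed at 0.88, with 6.15% of genes as high. Counting either direction, 2.18% of genes had as large a difference as LAMA5, 1.63% as NID2 and 12.8% as LAMC1. LAMB3 (0.51), LAMB1 (0.46) and LAMA1 (-0.26) were inside the bulk of genes. LAMA5 was the gene of the set outside the SD between probes on both arrays, with opposite signs, at 0.43 in depleted cells against an SD of 0.42.

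**Figure D2:**
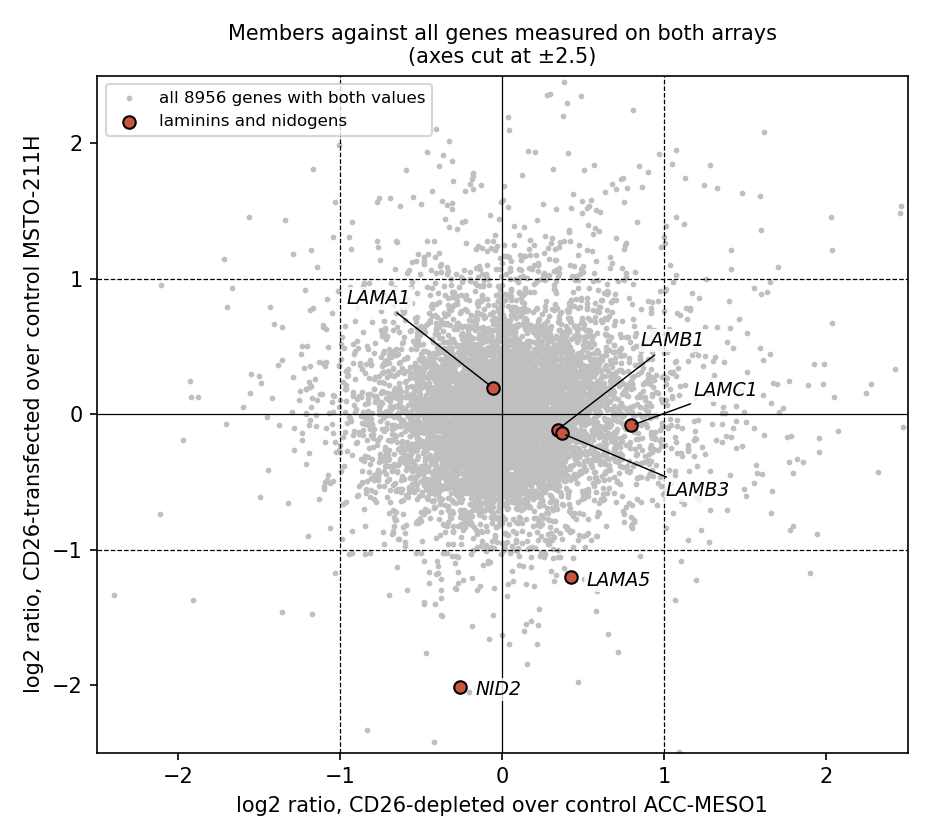
Log2 ratio in CD26-depleted over control ACC-MESO1 cells (horizontal axis) and in CD26-transfected over control MSTO-211H cells (vertical axis) for the 8956 genes with both values in grey and the 6 laminin and nidogen genes with both in red. Dashed lines are 2-fold, and 12 genes lie outside the axes, which end at 2.5. LAMA5 and NID2 lie low on the vertical axis, at -1.21 and -2.02, among the few genes below the lower dashed line. LAMA1, LAMB1 and LAMB3 lie in the bulk of the cloud, and LAMC1 lies towards its right side, at 0.80 on the horizontal axis.

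The genes nearest to NID2 in the pair of values, by Euclidean distance over the 2 arrays, were SMARCA1 (distance 0.06), a chromatin remodelling ATPase gene, with values of -0.21 and -2.05. GALC, which encodes a lysosomal galactosidase, followed at 0.33, with values of -0.47 and -1.77. PABIR1 was at 0.40, with values of -0.08 and -1.66. Only 2 values enter each distance.

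Genes that lie side by side on a chromosome can have like values, so each gene was set beside its neighbours. These were up to 10 measured genes on each side, in RefSeq order. On the transfection array the 20 neighbours of NID2 on chromosome 14 had a median of 0.41 and ranged from -0.61 to 1.94. None of them was at least 2-fold lower, and NID2 lay below all of them. With each chromosome centred on its own median, NID2 was at -2.22. The 20 neighbours of LAMA5 on chromosome 20 had a median of -0.0035 on that array and ranged from -1.22 to 1.23. The ends of that range, named after their values were seen, were PHACTR3 and TAF4, the neighbours past 2-fold.

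On the depletion array, LAMA4 (0.50) and LAMA5 (0.43) lay above all of their 20 neighbours, whose medians were -0.27 and -0.09. The highest of those neighbours were at 0.37 and 0.23. NID1 (-0.86) lay below all of its own, with a neighbour median of 0.11 and a lowest neighbour at -0.79. Each of these margins was smaller than the SD between probes, 0.42. In all, 3 of 9 genes lay outside their neighbours' range on this array and 1 of 6 on the transfection array. The share of all genes that do so was not computed. LAMB3 (0.37) was close to the median of its neighbours on chromosome 1, 0.31, and LAMA1 (-0.06) was close to that of its neighbours on chromosome 18, -0.03. LAMC1 (0.80) lay inside the range of its neighbours, -0.96 to 1.05, whose median was 0.11.

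**Figure D3:**
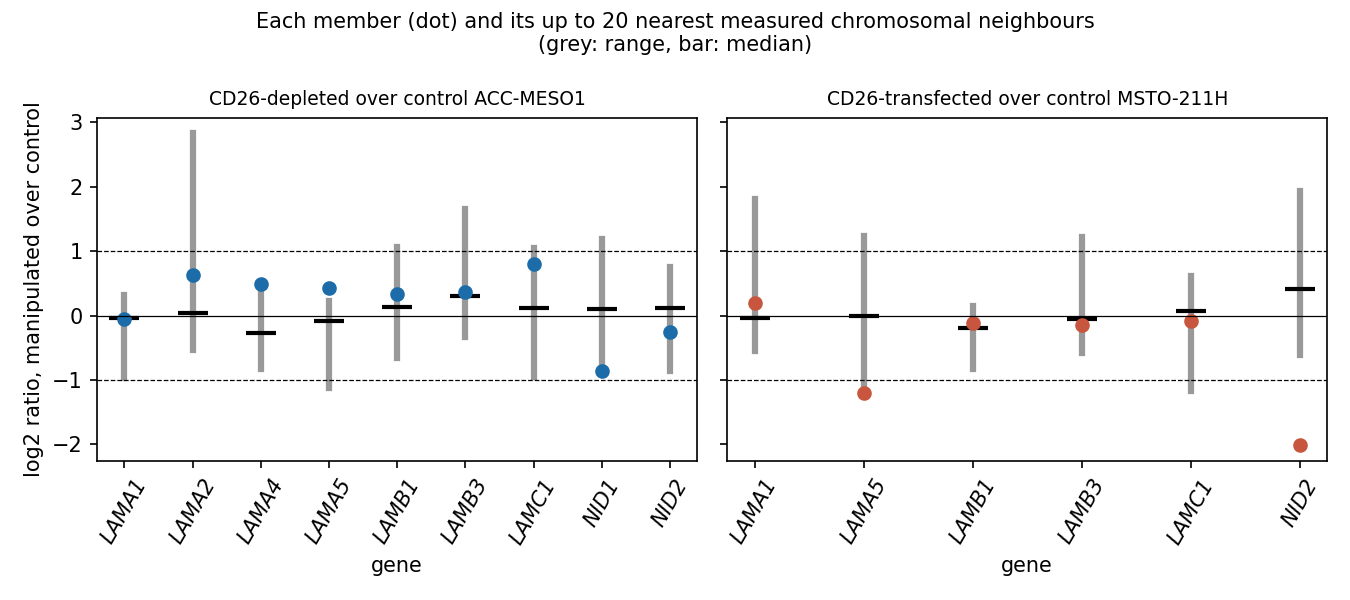
Log2 ratio of manipulated over control cells (vertical axis) for each gene of the set (dot) and for its up to 20 nearest measured genes on the same chromosome (grey line for the range, black bar for the median), CD26-depleted ACC-MESO1 on the left and CD26-transfected MSTO-211H on the right. Dashed lines are 2-fold. NID2 lies below its whole neighbour range on the right (-2.02 against a lowest neighbour of -0.61), and LAMA5 lies at the lower end of its range.

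Other laminin chain genes on the array were LAMB2, LAMC3, LAMA3 and LAMB4. LAMB2, the beta chain of muscle and kidney laminins, had values of 0.74 after depletion and -0.0016 after transfection. The symbol LAMB2 was formerly also used for LAMC1, and the probe is taken as the annotation lists it. LAMC3 had -0.20 and 0.27. LAMA3 and LAMB4 had no value on either array, so of the skin-type trimer LAMB3 alone was measured here.

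Genes for laminin receptors had medians of 0.12 after depletion and -0.17 after transfection over 12 measured genes. The syndecan gene SDC4, a heparan sulphate proteoglycan of adhesion sites, was at least 2-fold higher after depletion (1.57) and was at -0.37 after transfection. ITGA7, an integrin alpha chain that binds laminin in muscle, was at least 2-fold lower after transfection (-1.10) and was at -0.29 after depletion. No other receptor gene was past 2-fold on either array, so 1 of 12 was past it on each, beside 4.86% and 5.46% of all genes. With ribosomal protein centring ITGA2 (1.23, and 0.91 as deposited) joined SDC4 after depletion, and ITGA7 (-0.81) was short of 2-fold, leaving 0 of 12 after transfection. The lowest receptor gene after depletion was ITGB4 (-0.55), the beta chain of hemidesmosomes. After transfection its 2 probes disagreed, at -1.03 and 0.26, and the first would add it to those past 2-fold. The highest after transfection was SDC2 (0.57). Named after their values were seen, the laminin-binding integrin alpha chains ITGA3 and ITGA6 had 0.01 and 0.55 after depletion, and 0.12 and -0.37 after transfection. ITGB1, their beta chain, had 0.33 and 0.13, and the dystroglycan gene DAG1 had -0.15 and -0.22.

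Among other basement membrane genes, 1 of 14 was past 2-fold after depletion and 0 of 11 after transfection, beside 4.86% and 5.46% of all genes. The second count was 1 with ribosomal protein centring or chromosome centring, through FBLN2 (1.28 and 1.01). It was 2 with the probe of largest size per gene, through COL4A6 (probes at 1.15 and -0.33) and FRAS1 (probes at 1.45, -0.22 and -0.37). Of all 9359 genes, 727 were higher and 46 lower with ribosomal protein centring. These numbers were 367 and 132 with chromosome centring, and 414 and 137 with that probe rule. COL7A1, the collagen of anchoring fibrils, was at 1.14 after depletion and at -0.93 after transfection, with the signs of LAMA5. FREM2 was the lowest after depletion (-0.42). The nidogen-binding fibulin gene FBLN2 was the highest after transfection, at 0.99, just short of 2-fold. FBLN1, the other fibulin of the list, was at -0.71 there, with probes at -0.92 and -0.51, and at -0.14 after depletion. The measured type IV collagen genes, named after their values were seen, differed among themselves. After depletion COL4A5 was at 0.49, COL4A1 at 0.22, COL4A6 at 0.11 and COL4A3 at -0.30. After transfection COL4A1 was at -0.58, COL4A6 averaged 0.41, and the others had no value. In addition, the perlecan gene HSPG2 had 0.17 after depletion and no value after transfection. The medians of this list were 0.18 and 0.26.

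Among proteases that can cut laminins or nidogens, 5 of 17 measured genes were past 2-fold after depletion and 2 of 15 after transfection, beside the same 4.86% and 5.46% of all genes. With ribosomal protein centring the counts were 3 of 17 and 4 of 15, and among genes with both values 2 of 13 were past 2-fold on each array. After depletion MMP3 (3.75), the urokinase gene PLAU (1.41) and the plasminogen gene PLG (1.31) were higher, and the neutrophil elastase gene ELANE (-1.09) and the hepsin gene HPN (-1.21) were lower, both short of 2-fold with that centring (-0.77 and -0.88). MMP3, PLG and ELANE had no value on the transfection array. There MMP2 (1.77) and PLAU (1.21) were higher, and MMP9 was the lowest at -0.98. ADAMTS1 (1.21) and CTSS (1.05) joined them with that centring, and were at 0.93 and 0.77 as deposited. PLAU was therefore past 2-fold on both arrays, in the same direction. The list medians, 0.12 and 0.14, were smaller than the SD between probes, which is a spread of single probes and not the error of a median. The median of all genes was 0.01 on each array.

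None of the measured netrin genes, which share domains with laminins, was past 2-fold. That was 0 of 3 on each array, beside 4.86% and 5.46% of all genes. NTN3 was the lowest (-0.24 and -0.74), and NTN4 (0.01) and NTNG2 (0.43) were the highest. Genes for the sugar chain by which dystroglycan binds laminin gave 0 of 6 past 2-fold on each array, beside the same shares of all genes. Of the 16 genes in this list, only these 6 were on the array, among them DPM1, DPM2 and DPM3. The pathway was thus covered in part only, and 0 among so few genes is close to the share over all genes. The 6 genes ranged from DPM3 (-0.89) to POMT2 (0.31) after depletion and from POMT1 (-0.41) to DPM3 (0.49) after transfection.

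**Figure D4:**
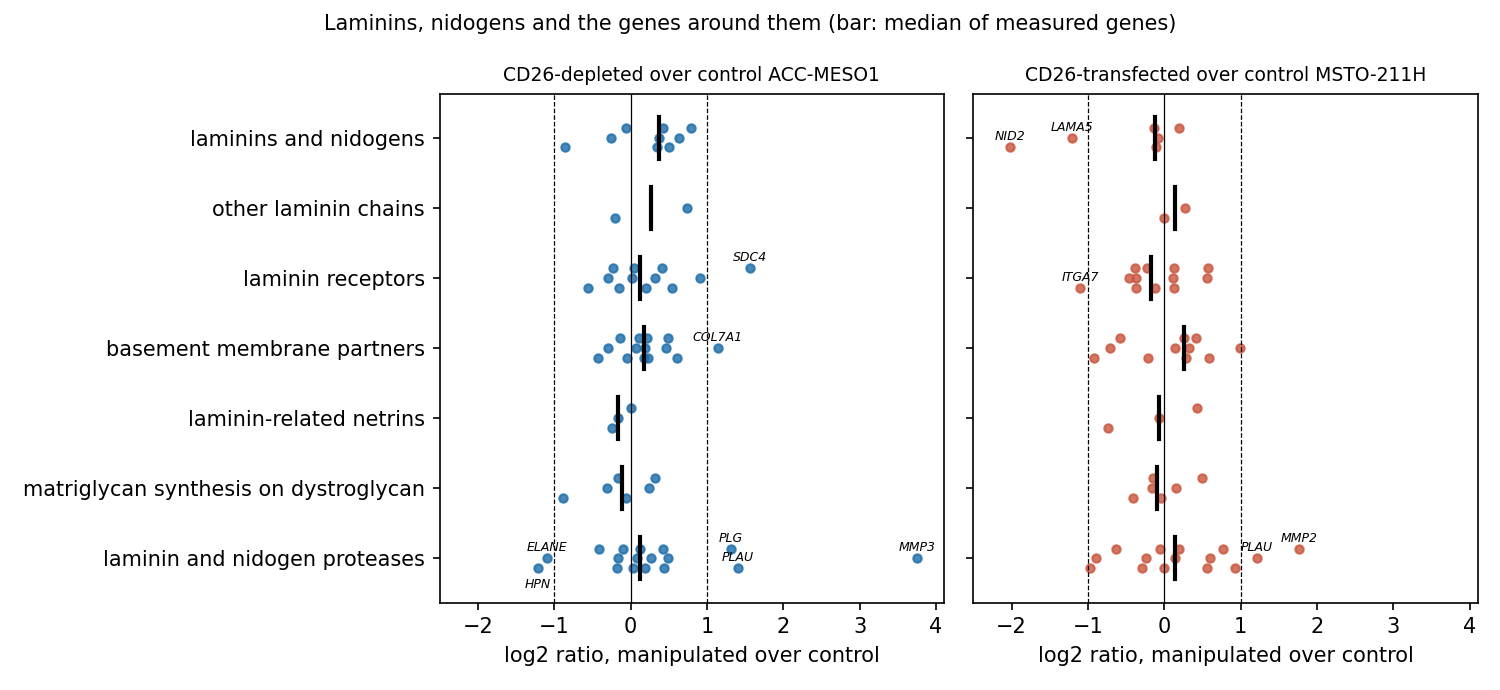
Log2 ratio of manipulated over control cells (horizontal axis) for the measured genes of each list (rows), CD26-depleted ACC-MESO1 on the left and CD26-transfected MSTO-211H on the right. Each point is a gene, the black bar is the list's median, dashed lines are 2-fold and genes past them are named. The laminin and nidogen row has a median of 0.37 on the left, and in that row NID2 and LAMA5 lie past the lower dashed line on the right.

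Laminins and nidogens are also made by fibroblasts, endothelium and muscle, so markers of those cells are given beside the low values of NID2 and LAMA5. After transfection, 6 of 10 fibroblast markers were below 0, and 50.7% of all genes on that array were above 0. The median of these markers was -0.46, with a lowest value of -1.76 for FAP and a highest of 0.75 for THY1. FAP was the 1 of 10 at least 2-fold lower, beside 1.37% of all genes. Endothelial markers were below 0 in 5 of 6 genes, with a median of -0.40, from ERG (-0.51) to CLDN5 (0.57). Muscle markers had 3 values, from -0.01 for SMTN to 0.73 for MYOD1. Mesothelial markers had a median of 0.10 over 16 genes, and UPK3B was the highest (0.66). MSLN (-1.31) and KRT18 (-1.16), 2 of these 16, were at least 2-fold lower, beside the same 1.37% of all genes. After depletion the medians of the 4 marker lists lay between -0.07 and 0.08. At least 2-fold higher were MFAP5 (1.96), 1 of 11 fibroblast markers, and TM4SF1 (1.95) and ITLN1 (1.38), 2 of 17 mesothelial markers. Over all genes on that array this share was 3.31%. The lowest of the lists were LUM (-0.89), VWF (-0.22), CNN1 (-0.70) and WT1 (-0.37). CLDN5 (0.29) and MYH2 (0.78) were the highest of the endothelial and muscle lists. All marker counts are of values as deposited and were not computed with another centring. Whether levels were near 0 is unknown from ratios. Each array compared cells of 1 established line, so these values are those of marker genes within a line. They are not shares of other cell types, and no cause of them was tested.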

How the data were processed

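The authors deposited normalized log2 ratios, with the manipulated cells on top, per the labels' descriptions. Their normalization method, background correction and reason for leaving probes empty are not stated there. Intensities of the channels were not used here. With 1 array per comparison, the number of arrays limits the precision and no test or replicate error exists. The median over all probes was 0 on each array.

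Of 24267 probes, 13395 had 1 gene symbol in the platform annotation, 0 had several and 10872 had none. Symbols were updated through RefSeq for GRCh38.p14, and probes of a gene were averaged (Python 3.11.15, pandas 2.3.3). The depletion array then held 10347 genes and the transfection array 9359. Genes were called at a log2 ratio of 1 in size. The SD between probes was pooled over genes with several probes, whereas all 9 laminin and nidogen genes had 1 probe. Alternatives were centring on ribosomal protein genes or by chromosome, thresholds of 0.5 and 1.5, other probe rules, a common spread, and genes with both values. How often a call is wrong was not tested. The 9 genes and all gene lists were chosen with earlier results of these data known. All 9 genes are named, with the genes past 2-fold and the highest and lowest gene of each other list, and the 3 genes nearest to the gene farthest from 0.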

Additional observations from a re-analysis of the deposited data

How the results depend on the processing

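No paired analysis was possible because each comparison has 1 array. Centred on 34 cytosolic ribosomal protein genes, all values moved up by 0.33 on the depletion array and by 0.29 on the transfection array. LAMC1 then passed 2-fold after depletion (1.12), giving 1 gene at least 2-fold higher, and LAMA5 no longer did after transfection (-0.92), leaving 1 gene, NID2 (-1.73), at least 2-fold lower. With that centring the medians of the set were 0.69 and 0.16, the values of LAMB1 (0.17), LAMB3 (0.14) and LAMC1 (0.20) after transfection and of LAMA1 (0.27) and NID2 (0.07) after depletion were above 0, and over all genes 790 were higher and 43 lower after depletion (342 and 161 as deposited), with 727 and 46 after transfection (383 and 128 as deposited). With each chromosome centred on its own median, LAMB1 was at 0.06 after transfection. At a threshold of 0.5, 2 genes were higher (LAMC1, LAMA2) and 1 lower (NID1) after depletion, and at 1.5, 1 was lower (NID2) after transfection. These thresholds gave 1323 and 125 of all genes higher and 1014 and 22 lower after depletion, and 1224 and 141 higher and 880 and 22 lower after transfection. Restricted to genes that both arrays measured, the number past 2-fold upward after depletion was 203. The choice of probe changes none of the 9 genes, since each has 1. Marker lists aside, the related list counts that moved with the centring, the probe rule or the genes used stand beside those lists. The exception is LAMB2, which passed 2-fold after depletion (1.07) with ribosomal protein centring. Counts in the marker lists were not computed under these alternatives and can move with them as well.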
